A study of Mus musculus with 12 samples.

Results

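Bile acid synthesis and transport, with the muricholic acid enzyme Cyp2c70, was followed through 10 genes in livers of mice with pancreatic ductal adenocarcinoma (PDAC). The deposited tables hold 56748 genes in all. The other members, Cyp7a1, Cyp8b1, Cyp27a1, Cyp7b1, Baat, Abcb11, Slc10a1, Slco1a1 and Nr0b2, were chosen by their known function. Earlier results of these data were known when they were chosen. Cyp2c70 was chosen on its measured counts, because it passed the test of agoCD40 against isotype in an earlier look at these data. Its difference in that comparison is therefore given as a description, with no test.

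RNA was measured in 12 libraries of poly(A)-selected RNA from liver tissue of 12-week-old tumour-bearing mice, 3 libraries in each of 4 groups. The isotype group received an isotype control antibody, and other labels of the same libraries call it no treatment. The agoCD40 group received an agonistic antibody against CD40, the receptor through which activated T cells stimulate B cells and other antigen-presenting cells. The antiIL1R1 group received an antibody that blocks IL-1R1, the signalling receptor of interleukin-1, and the Combo group received both antibodies. All groups carry the tumour, so no library shows a liver without it. The tumour model, strain, sex, doses and times of treatment are not given in the sources used here, and no label ties a library to an animal. The p-values therefore measure the spread between libraries, which may in part be technical.

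Bile acids are made from cholesterol in hepatocytes. In the classical route Cyp7a1 performs the rate-limiting step and Cyp8b1 adds the hydroxyl group that turns the product into cholic acid. In the alternative route Cyp27a1 oxidises the side chain and Cyp7b1 hydroxylates the resulting oxysterols. Cyp2c70 converts chenodeoxycholic acid into the muricholic acids that make the bile of mice more hydrophilic than that of humans. Baat conjugates bile acids to taurine, Abcb11 (the bile salt export pump) secretes them into bile, and Slc10a1 and Slco1a1 take them up from blood. Nr0b2 (small heterodimer partner) is induced by the bile acid receptor Nr1h4 (FXR) and represses synthesis genes.

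The sequence just before the start of 2 members is shown because they share a motif that few windows hold. RefSeq windows on the GRCm38.p6 build were found for 7 of the 10 members (8 windows), the others being Cyp7a1, Cyp7b1 and Baat. Each window covers the 250 bases before the annotated start. As a check of direction, the bases after the start were sought near the 5' end of the gene's transcripts. They were not found there for Cyp27a1, whose window holds the TTATGNAA match counted below. The motif CAAAGTCCA, a form of the element bound by the hepatocyte factor Hnf4a, was found on either strand in 0.384% of 32851 windows of that length and in the windows of Cyp2c70 and Cyp8b1. In the lines below, capitals mark the searched motifs.
Cyp2c70, chr19:40187287-40187536, minus strand: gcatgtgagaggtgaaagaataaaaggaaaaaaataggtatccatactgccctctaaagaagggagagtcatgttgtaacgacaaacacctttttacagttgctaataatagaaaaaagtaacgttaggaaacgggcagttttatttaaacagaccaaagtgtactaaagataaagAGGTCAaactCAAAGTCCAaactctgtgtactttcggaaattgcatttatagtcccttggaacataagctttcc
Cyp8b1, chr9:121916306-121916555, minus strand: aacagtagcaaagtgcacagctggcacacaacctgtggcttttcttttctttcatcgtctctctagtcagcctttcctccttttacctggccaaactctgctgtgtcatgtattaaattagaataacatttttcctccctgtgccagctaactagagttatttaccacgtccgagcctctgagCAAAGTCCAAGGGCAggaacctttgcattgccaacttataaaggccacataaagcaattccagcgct
The motif spans bases -64 to -56 from the start in Cyp2c70 and -67 to -59 in Cyp8b1. In Cyp2c70 it follows the half-site AGGTCA (-74 to -69), a motif of 14.0% of the windows and of 4 of the 7 members (Abcb11, Slco1a1, Slc10a1 and Cyp2c70). In Cyp8b1 it overlaps the extended half-site CAAGGNCA (-60 to -53), which 5.53% of windows hold and which Nr0b2 also has. The other motifs searched, on both strands, were GTTAAT (6.43% of windows, 0 of the 7 members), TTGCNNAA (9.56%, 1 member), TTATGNAA (3.07%, 1 member), CACGTG (6.02%, 1 member) and TTCNNNGAA (7.02%, 2 members). These are matches of letters, and binding was not measured.

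All 10 members were abundant in every library and passed the filter on low counts. The libraries held 18681390 to 27118712 counts. Isotype 2 and antiIL1R1 2 stood apart by their share of mitochondrial counts (14.1% and 14.8%). On the TPM scale, which divides by transcript length and so allows genes to be compared, the mean over 12 libraries ran from 382 for Slc10a1 to 41.5 for Cyp7a1. Slc10a1 was followed by Cyp27a1 (300.4 TPM), Cyp2c70 (299), Cyp8b1 (173), Baat (143), Abcb11 (118), Slco1a1 (100.4), Cyp7b1 (83.1) and Nr0b2 (59.0). Neighbours in this order overlapped over the libraries. In isotype alone, the mean TPM of the members stood between the 85.7th and the 97.3rd percentile of the 15465 genes tested.

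**Figure D1:**
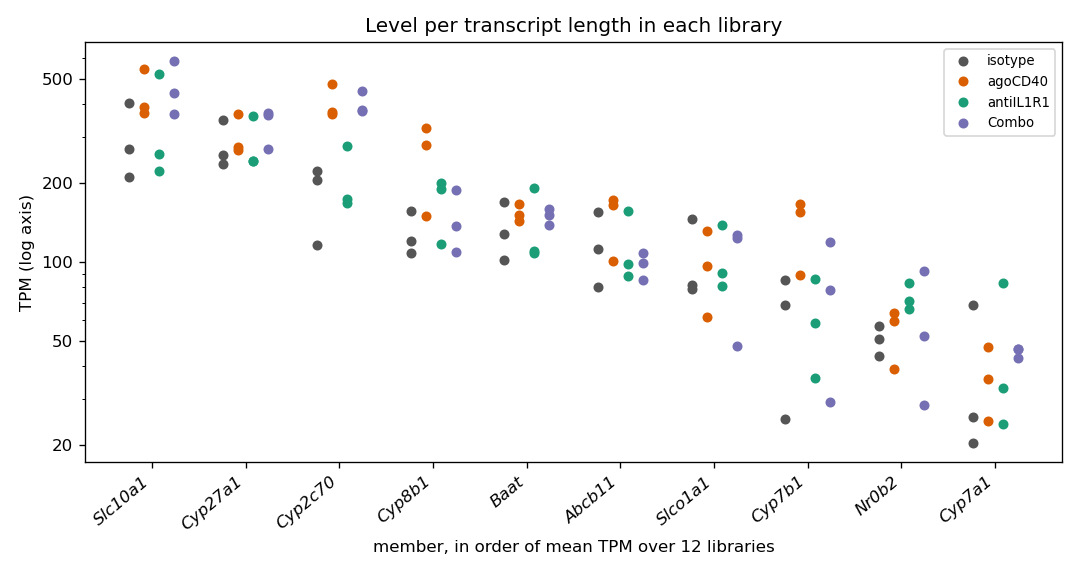
TPM of each member (log axis) in each of the 12 libraries, 1 point per library, coloured by group and ordered by the mean over libraries. Slc10a1 has the highest mean (382 TPM) and Cyp7a1 the lowest (41.5 TPM), and only for Cyp2c70 do the agoCD40 and Combo points all lie above the isotype and antiIL1R1 points.

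Cyp2c70 (ENSMUSG00000060613) was the member that separated the groups. In CPM (counts scaled to a common library total), it stood at 231, 193 and 237 in the isotype libraries and at 504, 524 and 512 in agoCD40. The antiIL1R1 libraries had 319, 277 and 259 CPM, and the Combo libraries had 403, 484 and 469.8 CPM. The 6 libraries with the agonist all lay above the 6 without it, and on this scale the libraries of no 2 groups overlapped. The group means were 220.1 ± 23.7 (SD, n = 3) for isotype, 513 ± 9.67 for agoCD40, 285 ± 30.7 for antiIL1R1 and 452 ± 43.4 for Combo. In agoCD40 against isotype the difference was 1.22 ± 0.144 (SE) on the log2 scale, a 2.33-fold higher level, which is the value that put the gene in the set.

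The comparison of Combo with antiIL1R1 asks the same question under blockade and shares no library with agoCD40 against isotype. Its SE and p-values below, however, take the spread of Cyp2c70 from all groups, including the libraries on which the gene was chosen. They are therefore not independent of the choice. With only the groups compared in the fit, 0 members were called by edgeR. Cyp2c70 was 1.59-fold higher in Combo, a log2 difference of 0.67 ± 0.143 (SE) with a 95% interval of 0.36 to 0.97. The 3 Combo libraries lay above the 3 antiIL1R1 libraries, but edgeR's quasi-likelihood test with Benjamini-Hochberg adjustment over 15465 genes gave an adjusted p of 0.0777 (unadjusted p 0.00046), short of the threshold of 0.05. DESeq2 put the same difference past the threshold (adjusted p 0.000308). On log2(TPM + 1), limma gave a larger log2 difference of 1.00 and an adjusted p of 0.125. Without isotype 2 and antiIL1R1 2 the difference was 0.64 (adjusted p 0.145 by edgeR's quasi-likelihood test).

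The remaining comparisons each use isotype or agoCD40 libraries, on whose values Cyp2c70 was chosen, so its differences there are descriptions with no test. Its level was 2.05-fold higher in Combo than in isotype, a log2 difference of 1.04 ± 0.143 (SE). The blockade alone gave a log2 difference of 0.37 ± 0.142, and the blockade added to the agonist gave -0.18 ± 0.142. The agonist difference under blockade minus that without it was -0.56 ± 0.201, and the second of these is the value that chose the gene.

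The order of the groups for Cyp2c70 depended in part on the scale. In the deposited TPM, the isotype libraries held 206, 116 and 222 and the antiIL1R1 libraries 276, 167 and 174, and these overlapped. The agoCD40 libraries held 368, 478 and 372 TPM and the Combo libraries 381, 451 and 378, and these overlapped as well. What remained on both scales was the gap between the agonist libraries and the others. On log2(TPM + 1) the difference between Combo and agoCD40 was -0.004 in place of -0.18, and the interaction estimate was -0.20 in place of -0.56. Within groups the residual SD of its log2 CPM was 0.132, the 13.9th percentile of the 1184 genes between 100 and 1000 CPM. A gene chosen by a test that includes these libraries is likely to have a small SD, so this too is a description. For Cyp7b1 the same measure was 0.842, the 99.0th percentile of those genes.

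**Figure D2:**
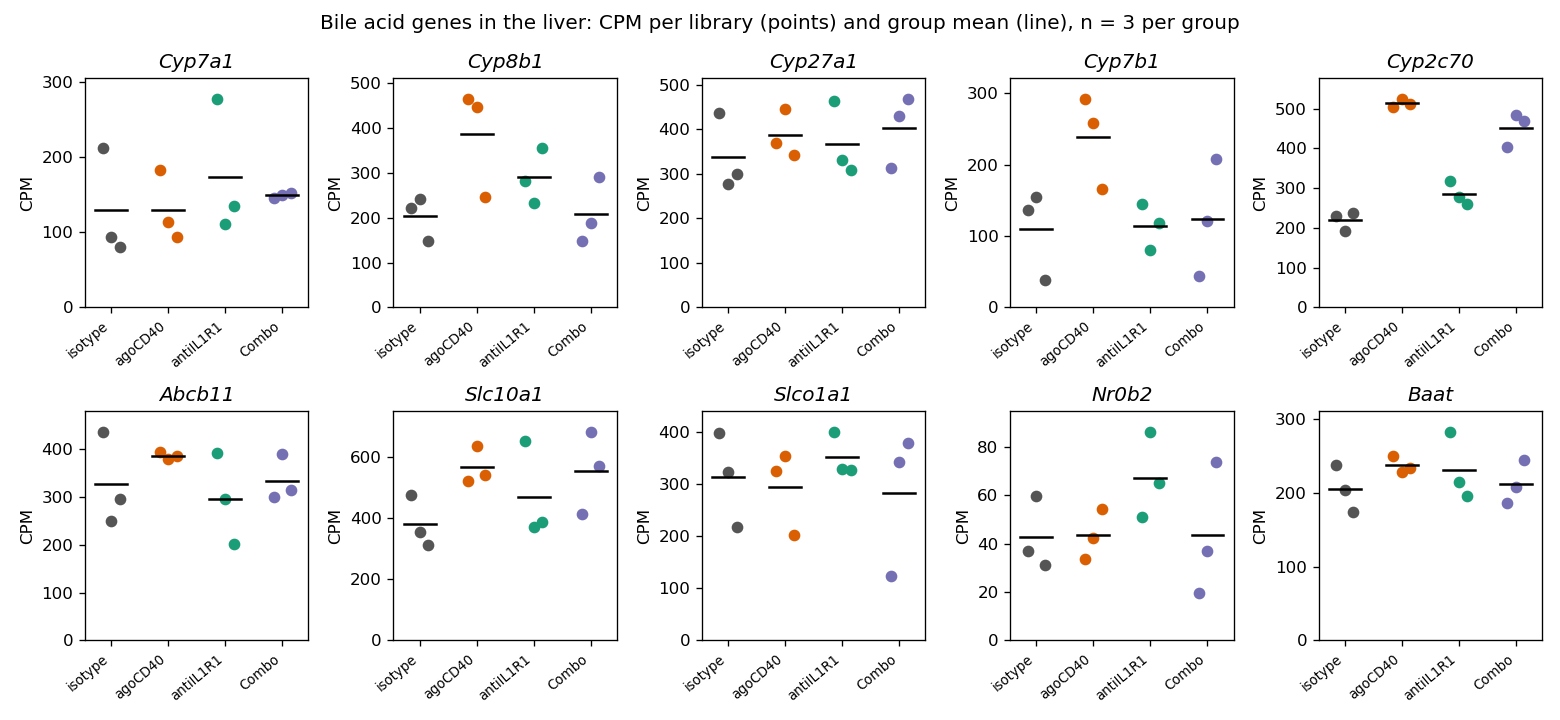
CPM of the 10 members per library (points, 3 per group) with the group mean (line); each axis starts at 0. The Cyp2c70 panel separates the agonist groups (403 to 524 CPM) from the others (193 to 319 CPM), while most other panels overlap.

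Cyp8b1 (ENSMUSG00000050445), the enzyme that directs synthesis towards cholic acid, was highest in agoCD40. The isotype libraries had 221, 242 and 148 CPM and the agoCD40 libraries 465, 448 and 246 CPM. The antiIL1R1 libraries had 283, 234 and 356 CPM, and the Combo libraries 147, 189 and 291 CPM. The lowest agoCD40 library stood just above the highest isotype library, and Combo overlapped with isotype. The agonist difference was 0.92 ± 0.30 (SE) on the log2 scale without blockade (unadjusted p 0.00883, adjusted p 0.252) and -0.48 ± 0.298 with it (adjusted p 0.455), both by edgeR's quasi-likelihood test. Combo lay below agoCD40 by a log2 difference of -0.89 ± 0.299 (unadjusted p 0.0113, adjusted p 0.634 by edgeR's quasi-likelihood test), and agoCD40 3, at 246 CPM, fell within the Combo range.

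The interaction estimate of Cyp8b1 was the largest of the members, at -1.40 ± 0.422 with a 95% interval of -2.31 to -0.49. Its unadjusted p was 0.00566 and its adjusted p 0.534 by edgeR's quasi-likelihood test, so it did not pass. Without the filter on low counts the same test called Cyp8b1 in agoCD40 against isotype (adjusted p 0.00326), in Combo against agoCD40 (0.0151) and in the interaction (0.00247). DESeq2 called it in none of these (adjusted p 0.0825, 0.206 and 0.121).

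Cyp7b1 (ENSMUSG00000039519), the oxysterol hydroxylase of the alternative route, varied most. It stood at 136, 155 and 39.1 CPM in isotype and at 291, 258 and 166 CPM in agoCD40, with no overlap. It stood at 144, 81.1 and 118 CPM in antiIL1R1 and at 44.5, 121 and 207 CPM in Combo. Isotype 3 and Combo 1 were the low libraries, and the highest of the 12 libraries was 7.46 times the lowest. The agonist difference was 1.12 ± 0.526 (adjusted p 0.508 by edgeR's quasi-likelihood test), with a 95% interval from -0.02 to 2.26 on the log2 scale. Combo against agoCD40 gave -0.94 ± 0.524 (adjusted p 0.812 by edgeR's quasi-likelihood test). Without the filter on low counts Cyp7b1 was called in both (adjusted p 0.00255 and 0.0463 by the same test). In agoCD40 against isotype that fit gave nearly the same log2 difference (1.13) with a smaller SE (0.257). DESeq2 called Cyp7b1 in neither comparison (adjusted p 0.541 in agoCD40 against isotype).

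The other enzymes of the set gave no call in any comparison. Cyp7a1 (ENSMUSG00000028240), the rate-limiting enzyme, had 212, 94.2 and 80.9 CPM in isotype, 182, 114 and 93.9 in agoCD40, 276.5, 110.2 and 134 in antiIL1R1 and 145, 149 and 153 in Combo. Every group held libraries near the same level, and isotype 1 and antiIL1R1 1 stood above the rest. Its agonist difference was 0.01 ± 0.392, with a 95% interval of -0.84 to 0.86 that covers lower as well as higher levels. Cyp27a1 (ENSMUSG00000026170) ranged from 278 to 468 CPM and Baat (ENSMUSG00000039653) from 174 to 282 CPM over all 12 libraries. Baat varied least after Cyp2c70 (residual SD 0.205 on the log2 scale), and its agonist difference was 0.21 ± 0.174 without blockade and -0.12 ± 0.174 with it.

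Among the transporters, Slc10a1 (ENSMUSG00000021135), the sodium-dependent uptake carrier, was nearest to Cyp2c70 in its pattern. It had 476, 356 and 312 CPM in isotype and 519, 636 and 542 CPM in agoCD40. The antiIL1R1 libraries had 650.4, 372 and 386 CPM and the Combo libraries 413, 680.4 and 569 CPM. Isotype and agoCD40 did not overlap, while antiIL1R1 1 and Combo 2 were the highest of all. The log2 difference was 0.57 ± 0.249 in agoCD40 against isotype (unadjusted p 0.0401, adjusted p 0.446) and 0.54 ± 0.249 in Combo against isotype (unadjusted p 0.0499, adjusted p 0.435), both by edgeR's quasi-likelihood test. Under blockade the agonist difference was 0.24 ± 0.249 (adjusted p 0.665 by the same test), and 0.55 on log2(TPM + 1).

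Slco1a1 (ENSMUSG00000041698), a sodium-independent uptake carrier, had 398, 324 and 218 CPM in isotype, 326, 355 and 203 in agoCD40, 399.9, 329.7 and 328 in antiIL1R1 and 124, 343 and 379 in Combo. Combo 1 was the lowest library, and the groups overlapped in every comparison. Its agonist difference was -0.09 ± 0.353 without blockade and -0.32 ± 0.354 with it.

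Abcb11 (ENSMUSG00000027048), the export pump of the canalicular membrane, had 435, 249 and 295 CPM in isotype, 393, 378 and 386 in agoCD40, 392, 294 and 201 in antiIL1R1 and 299, 389 and 314 in Combo. All groups overlapped, and the agonist difference was 0.24 ± 0.243 without blockade and 0.18 ± 0.243 with it. In the deposited TPM the ranking of libraries was another. Isotype 2, the lowest isotype library in CPM, was the highest in TPM (155, against 112 and 80.5), and the agonist difference under blockade turned from 0.18 to -0.19 on log2(TPM + 1).

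Counts divided by TPM give the transcript length that the 2 deposited tables imply, and for Abcb11 this length was not stable. Relative to its geometric mean over libraries, it ran from 0.438 in isotype 2 to 1.5 in isotype 1, a 3.43-fold range that stood at the 98.9th percentile of 8502 genes with at least 100 counts in each library. The other low libraries were antiIL1R1 2 (0.520), antiIL1R1 3 (0.695), agoCD40 1 (0.748) and agoCD40 3 (0.778). Cyp27a1 had a 1.52-fold range, and the other 8 members stayed within 1.08-fold, against a median of 1.17-fold over those genes. The share of counts from mitochondrial genes ran from 6.23% to 14.8% and was highest in isotype 2 and antiIL1R1 2. Within groups, the log2 relative length of Abcb11 and that share had a Pearson r of -0.964 over 12 libraries (exact permutation p 0.00617, adjusted p 0.0309 over 20 relations) and a Spearman rho of -0.937 (exact permutation p 0.00849). Without isotype 2 and antiIL1R1 2 the r was -0.933. The part of RNA quality in the TPM of Abcb11 was not tested.

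**Figure D3:**
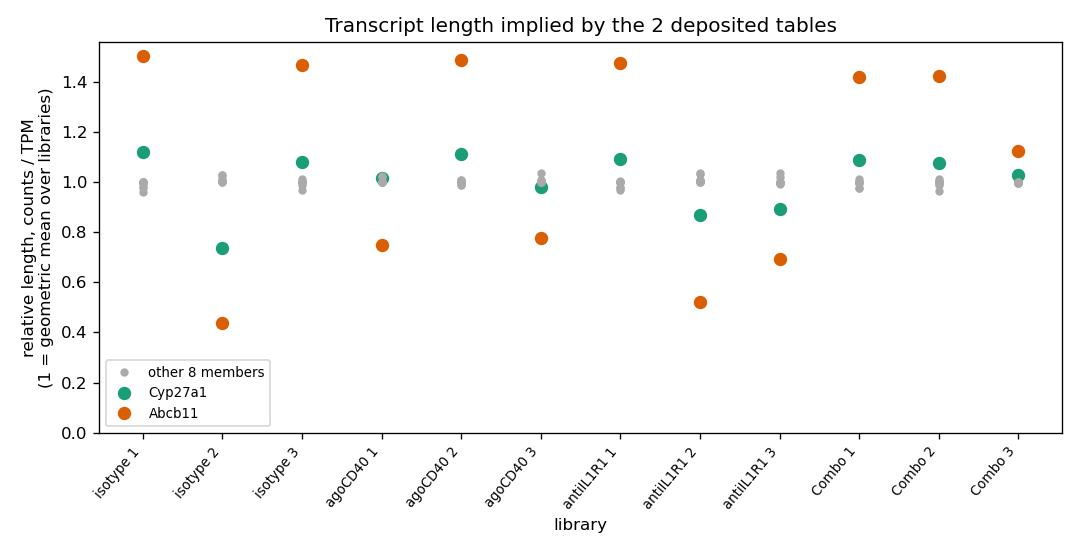
Relative transcript length (counts divided by TPM, scaled per library, 1 = geometric mean over libraries) of the members in each library. Abcb11 falls to 0.438 in isotype 2 and reaches 1.5 in isotype 1, Cyp27a1 varies 1.52-fold, and the other 8 members stay near 1.

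Nr0b2 (ENSMUSG00000037583), the repressor among the members, was the least abundant in CPM. It had 36.8, 59.7 and 31.1 CPM in isotype, 33.6, 42.2 and 54.3 in agoCD40, 50.8, 86.0 and 64.9 in antiIL1R1 and 19.7, 37.1 and 73.7 in Combo. The antiIL1R1 mean was the highest, at 67.2 ± 17.7 CPM (SD, n = 3) against 42.5 ± 15.2 in isotype, and the groups overlapped. The log2 difference was 0.66 ± 0.397 in antiIL1R1 against isotype (adjusted p 0.987) and -0.63 ± 0.397 in Combo against antiIL1R1 (adjusted p 0.459), both by edgeR's quasi-likelihood test. Within groups, log2 CPM of Nr0b2 and the mitochondrial share had a Pearson r of 0.644 over 12 libraries (exact permutation p 0.00772, adjusted p 0.0309 over 20 relations) and a Spearman rho of 0.734 (exact permutation p 0.0147). Without isotype 2 and antiIL1R1 2 the r was 0.540. No other member's CPM had an adjusted p under 0.05 in this family, and the part of that share in the level of Nr0b2 was not tested.

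Counted over the members, calls were few. In agoCD40 against isotype 1 of 10 members passed edgeR's quasi-likelihood test, which is Cyp2c70 and follows from the choice, beside 0.718% of all genes. Combo against isotype also gave 1 of 10, beside 0.407% of all genes. It is again Cyp2c70, and as the isotype libraries took part in its choice nothing is read from this count. In Combo against antiIL1R1 0 of 10 passed, beside 0.175% of all genes, with 1 at an unadjusted p under 0.05 and 1 called by DESeq2, both Cyp2c70. In antiIL1R1 against isotype 0 of 10 passed, beside 0% of all genes, with 1 at an unadjusted p under 0.05 (Cyp2c70, whose choice used the isotype libraries) and 0 by DESeq2. In Combo against agoCD40 0 of 10 passed, beside 0.00647% of all genes, which is Noct alone, with 1 at an unadjusted p under 0.05 (Cyp8b1) and 0 by DESeq2. The interaction also called 0 of 10, beside 0.00647% of all genes, which is Ddit4 alone, with 2 at an unadjusted p under 0.05 (Cyp8b1 and Cyp2c70, the latter through the difference that chose it) and 0 by DESeq2. Over all genes the share at an unadjusted p under 0.05 was 10.2% in agoCD40 against isotype, 15.3% in Combo against antiIL1R1, 3.65% in antiIL1R1 against isotype, 6.21% in Combo against agoCD40, 11.5% in Combo against isotype and 7.51% in the interaction. In the same order, DESeq2 called 399, 486, 3, 85, 377 and 82 of the 15465 genes.

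The libraries of agoCD40 lay wholly above those of isotype for 4 members, Cyp8b1, Cyp7b1, Cyp2c70 and Slc10a1, beside 7.52% of all genes, a comparison in which Cyp2c70 was chosen. Among the other comparisons, only Combo against antiIL1R1 uses no isotype or agoCD40 library. Its libraries may still have entered the spread used in the choosing test. In the other comparisons Cyp2c70 was the only member without overlap. It lay wholly above in Combo against antiIL1R1 (12.3% of all genes), in antiIL1R1 against isotype (3.1%) and in Combo against isotype (8.78%), and wholly below in Combo against agoCD40 (7.07%). The median log2 difference of the members was 0.22 in agoCD40 against isotype, beside -0.02 over all genes, and 0.24 in antiIL1R1 against isotype, beside -0.02. It was 0.00 in Combo against antiIL1R1 (0.03 over all genes), -0.11 in Combo against agoCD40 (0.01) and 0.12 in Combo against isotype (-0.02). Scaling by total counts moved the median of all genes by up to 0.16.

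The interaction estimate was negative for all 10 members under TMM scaling, while 52.8% of all genes had a positive one. The median was -0.33 beside 0.03 over all genes. Negative estimates were also found for 15 of 15 male-biased liver genes, a list that holds Slco1a1 and Cyp7b1. Of 13 pericentral genes 11 were negative, and 12 of 12 periportal genes were positive. The estimate of Cyp2c70 contains the difference that chose it. The sign of the estimate held in each of 21 alternatives for Cyp8b1, Cyp7b1, Cyp2c70, Slc10a1, Nr0b2 and Baat. It turned positive in some alternatives for Cyp7a1, Cyp27a1, Abcb11 and Slco1a1. The interaction uses every group and so shares libraries with all the other comparisons. In the comparisons that share no library, agoCD40 against isotype and Combo against antiIL1R1, 6 of 10 members had the same sign, beside 56.7% of all genes.

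**Figure D4:**
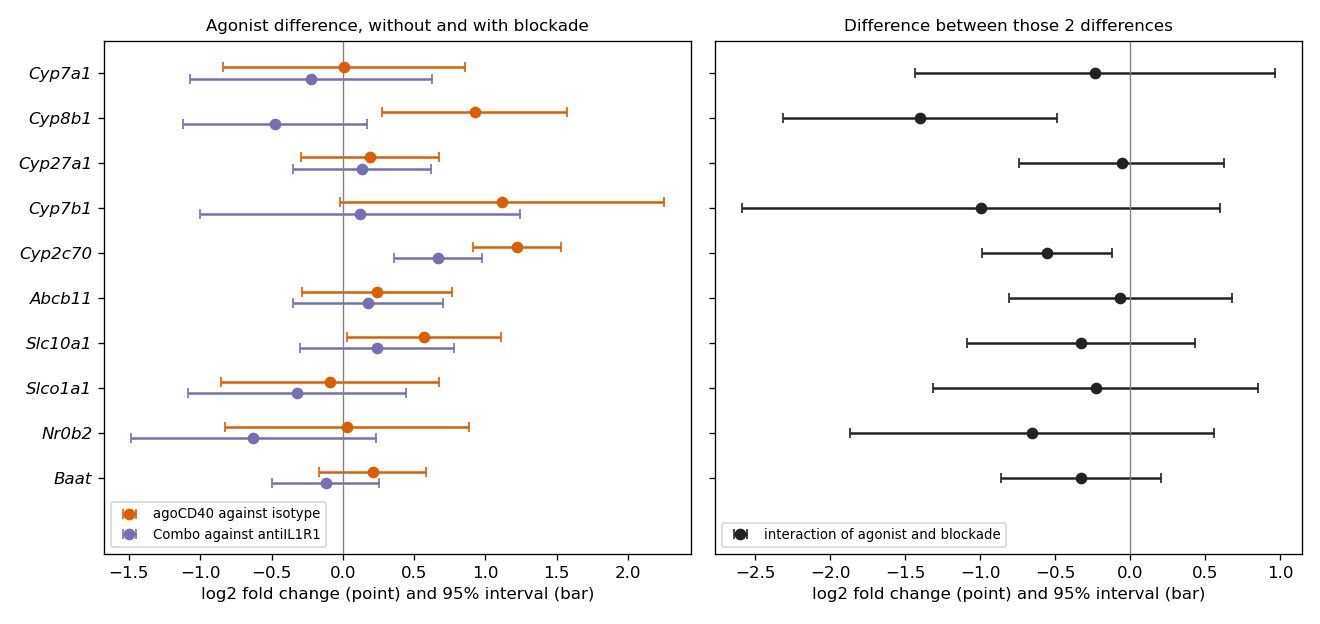
Left, log2 fold change (point) and 95% interval (bar) of each member for agoCD40 against isotype and for Combo against antiIL1R1. Right, the second minus the first: Cyp2c70 is above 0 in both comparisons (1.22 and 0.67), and the 10 interaction estimates lie below 0, with intervals that reach past 0 for 8 members.

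Within groups most pairs of members had a positive correlation. The share of such pairs among other abundant genes was not measured, so nothing particular to the members is read from it. After the group means were removed from log2 CPM, 40 of the 45 pairs of members had a positive Pearson r over the 12 libraries, with a median of 0.579. Cyp27a1 and Slc10a1 had the highest r, 0.887 (exact permutation p 0.0131), with a Spearman rho of 0.790 (exact permutation p 0.0301) and an r of 0.803 without isotype 1 and antiIL1R1 1. Cyp7b1 and Slco1a1 followed at an r of 0.885 (exact permutation p 0.00694), a rho of 0.790 (exact permutation p 0.010) and an r of 0.780 without isotype 3 and Combo 1. Cyp8b1 and Cyp7b1 had an r of 0.851 (exact permutation p 0.00386), a rho of 0.748 (exact permutation p 0.0123) and an r of 0.840 without agoCD40 3 and Combo 1. Over the 45 pairs 14 had an exact permutation p under 0.05 and 0 an adjusted p under 0.05, the smallest being 0.0984. On log2(TPM + 1) 9 pairs passed after adjustment. The negative pairs were Nr0b2 with Cyp7a1 (-0.31), Abcb11 (-0.20) and Cyp2c70 (-0.02), and Cyp8b1 with Abcb11 (-0.14) and Cyp2c70 (-0.05). The r of Nr0b2 reached 0.579 with Cyp7b1, 0.519 with Slco1a1 and 0.390 with Cyp8b1.

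**Figure D5:**
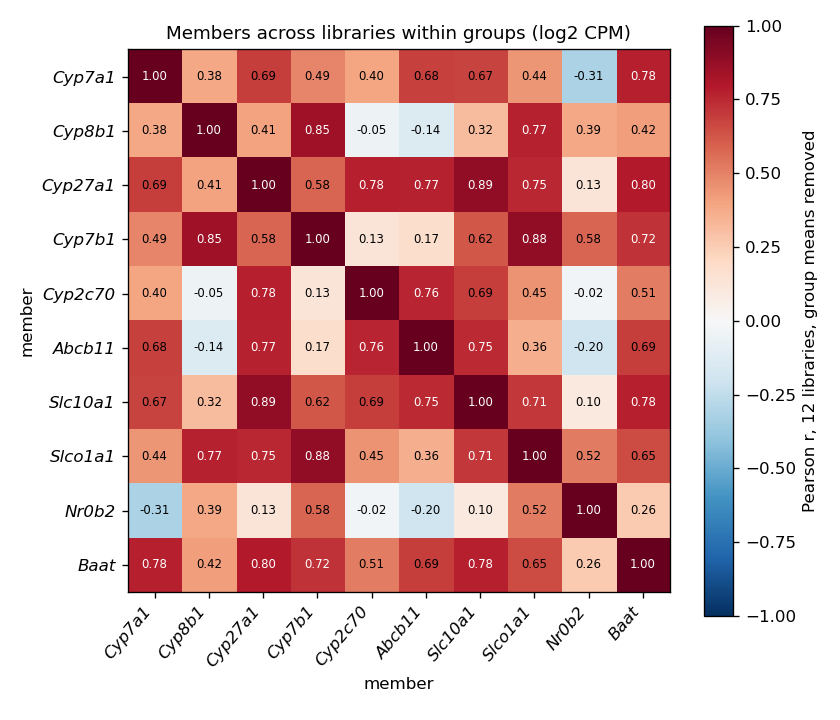
Pearson r between members over 12 libraries after group means were removed (log2 CPM). Warm cells are positive, as for 40 of the 45 pairs, and 3 of the 5 negative pairs hold Nr0b2.

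Over the 12 libraries with the groups kept in, the members most like Cyp2c70 in log2 CPM were Slc10a1 (Pearson r 0.735), Cyp27a1 (0.50) and Abcb11 (0.497). These correlations describe a pattern that Cyp2c70 was chosen for and carry no test. Of 11761 genes with a mean of at least 1 CPM, the highest r belonged to Mettl7a1 (0.947), Snrpn (0.945), Rhbg (0.935), Eif4e3 (0.933) and Cyb561a3 (0.932). Their Spearman rho ran from 0.790 to 0.888. Rhbg, an ammonium transporter of pericentral hepatocytes, went from 6.27 CPM in isotype and 7.42 in antiIL1R1 to 19.6 in agoCD40 and 16.9 in Combo. The lowest r belonged to Sdc4 (-0.928), Soat2 (-0.923), Armcx4 (-0.914), Chac1 (-0.912) and Albfm1 (-0.906). Soat2, which esterifies cholesterol in hepatocytes, stood at 53.9 CPM in isotype and 49.4 in antiIL1R1 against 31.8 in agoCD40 and 36.8 in Combo.

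The wider pathway was read from lists of further genes. Of 14 further synthesis enzymes tested 0 were called by edgeR or by DESeq2 in any comparison. Beside 10.2% of all genes, 2 of these enzymes had an unadjusted p under 0.05 in agoCD40 against isotype. These were Amacr, a racemase of side-chain shortening (130.0 ± 15.8 CPM in isotype and 176 ± 11.1 in agoCD40, log2 difference 0.44 ± 0.157, adjusted p 0.311 by edgeR's quasi-likelihood test), and Akr1d1, the reductase of the steroid ring (0.61 ± 0.227, adjusted p 0.345 by the same test). Amacr was also higher in Combo (174 ± 9.38 CPM) than in antiIL1R1 (126 ± 23.1 CPM), with an adjusted p of 0.221 by that test. Of 8 conjugation and detoxification genes 0 were called by edgeR. In agoCD40 against isotype 2 of the 8, Ugt2b1 and Cyp3a13, had an unadjusted p under 0.05, beside 10.2% of all genes. DESeq2 called 1 there, beside 399 of 15465 genes, and 1 in Combo against antiIL1R1, beside 486. Ugt2b1, a glucuronosyltransferase, had 394 ± 132 CPM in isotype and 865 ± 17.6 in agoCD40 (log2 difference 1.13 ± 0.291, adjusted p 0.116 by edgeR's quasi-likelihood test). In Combo against antiIL1R1 the smallest p of that list was that of Cyp2b10 (5.38 ± 2.14 CPM in antiIL1R1 and 18.0 ± 2.25 in Combo, adjusted p 0.145 by the same test).

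Of 17 further transporters 1 was called in agoCD40 against isotype, beside 0.718% of all genes. Slc10a2, the apical sodium-dependent bile acid carrier of bile duct cells and ileum, had 34.1, 28.9 and 57.5 CPM in isotype and 18.8, 10.6 and 9.43 CPM in agoCD40. It fell by 1.64 ± 0.325 on the log2 scale (adjusted p 0.0384 by edgeR's quasi-likelihood test). That call was kept in 4 of 12 fits that left out 1 library, and the adjusted p was highest without agoCD40 3 (0.211). Of the 6 other bile duct markers, Cftr was under the filter on low counts and Krt19, Krt7, Epcam, Sox9 and Spp1 had positive log2 differences in that comparison. DESeq2 called 1 of these (Spp1), beside 399 of 15465 genes. By edgeR's quasi-likelihood test 0 were called, with 3 at an unadjusted p under 0.05 (Epcam, Sox9 and Spp1), beside 10.2% of all genes. Spp1 had 32.7 CPM (isotype) and 80.3 CPM (agoCD40, adjusted p 0.211 by the same test), and the part of bile duct cells in the Slc10a2 level was not tested.

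In Combo against isotype 1 of the 17 further transporters was called, beside 0.407% of all genes. This was Atp8b1, the canalicular phospholipid flippase. It had 47.6, 39.9 and 53.5 CPM in isotype and 26.2, 27.3 and 28.9 CPM in Combo, and fell by 0.77 ± 0.144 on the log2 scale (adjusted p 0.0406 by edgeR's quasi-likelihood test). That call was kept in 2 of 12 fits that left out 1 library, and the adjusted p was highest without Combo 2 (0.194). Under blockade Atp8b1 differed by -0.67 ± 0.144 between Combo and antiIL1R1 (adjusted p 0.0777 by the same test). Slco1a4, a further uptake carrier, was at 90.3 ± 4.79 CPM in isotype and 46.2 ± 10.1 in agoCD40, just short of the threshold (adjusted p 0.0513 by edgeR's quasi-likelihood test). In Combo it stood at 82.7 ± 4.72 CPM.

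Of 21 regulators 0 were called by edgeR in any comparison. DESeq2 called 1 in the interaction, beside 82 of 15465 genes, and 1 in agoCD40 against isotype, beside 399. In agoCD40 against isotype 8 had an unadjusted p under 0.05, beside 10.2% of all genes. The smallest p belonged to Foxa2 (isotype 9.98 ± 2.91 CPM, agoCD40 18.7 ± 1.88 CPM, adjusted p 0.0870 by edgeR's quasi-likelihood test) and Cebpb (334 ± 102 and 195 ± 34.7 CPM, adjusted p 0.272 by the same test), both transcription factors of hepatocytes. In Combo against antiIL1R1 4 had an unadjusted p under 0.05, beside 15.3% of all genes, led by Nr1h2 (an oxysterol receptor, adjusted p 0.194) and Jun (0.220, both by the same test), and DESeq2 called 0. Hnf4a and Nr1h4 were added here for their role, after their values were seen. Hnf4a had 728, 496 and 729 CPM in isotype and 439, 544 and 392 in agoCD40 (log2 difference -0.51 ± 0.203, adjusted p 0.397 by edgeR's quasi-likelihood test). Nr1h4 had a mean of 125 ± 46.2 CPM in isotype, 118 ± 20.9 in agoCD40, 148 ± 9.12 in antiIL1R1 and 94.4 ± 19.9 in Combo, with no call.

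Cyp2c70 has many relatives in the Cyp2c family, and 13 members of that family were tested with it counted in. All 13 had a positive log2 difference in agoCD40 against isotype, with a median of 0.46, beside 47.2% of all genes with a positive difference. Of the 13, 2 were called, beside 0.718% of all genes, and Cyp2c70 is one of them by its choice. The other was Cyp2c40, with 8.09, 6.03 and 3.23 CPM in isotype and 42.4, 28.1 and 62.8 in agoCD40. Cyp2c40 rose, with a log2 difference of 2.95 ± 0.458 (adjusted p 0.0107 by edgeR's quasi-likelihood test), a call lost without agoCD40 3 (adjusted p 0.0560). Its sequence is close to Cyp2c67, Cyp2c68 and Cyp2c69, so reads may be split between them and its value is uncertain. In Combo against antiIL1R1 7 of the 13 were positive, beside 52.3% of all genes, and 0 were called by edgeR, beside 0.175%. In that comparison 2 had an unadjusted p under 0.05, beside 15.3% of all genes, and DESeq2 called 1, beside 486 of 15465. The median interaction estimate of the family was -0.76 beside 0.03 over all genes, with 0 calls by edgeR or DESeq2. Of the 13, 4 had an unadjusted p under 0.05 in the interaction, beside 7.51% of all genes.

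The tissue was liver by its markers. The 6 hepatocyte markers tested summed to 80554 to 102292 CPM in isotype, 62355 to 79454 in agoCD40, 85749.7 to 100988 in antiIL1R1 and 62079 to 68039.8 in Combo, and 0 of them were called by edgeR in any comparison. By DESeq2 2 were called in Combo against antiIL1R1, beside 486 of 15465 genes, and 0 in the other comparisons. Up to 4 had an unadjusted p under 0.05 (Combo against isotype, beside 11.5% of all genes). The 7 Kupffer cell markers summed to 244 to 431 CPM in isotype, 116 to 183 in agoCD40, 199 to 241 in antiIL1R1 and 153 to 211 in Combo. All 7 had negative differences in agoCD40 against isotype, where Clec4f, Vsig4 and Cd163 fell by edgeR's test, beside 0.718% of all genes called. The call of Vsig4 was kept in 7 of 12 fits that left out 1 library, and it was lost with total-count scaling and the replicate block, among other alternatives. In Combo against antiIL1R1 all 7, named here after their values were seen, had an unadjusted p under 0.05, beside 15.3% of all genes. Of the 7, 4 had a negative and 3 a positive difference. Clec4f and Cd163 fell, beside 0.175% of all genes called. Vsig4 and Timd4 had negative differences without a call, and Cd5l (0.67), Marco (1.03) and Adgre1 (1.09) had positive log2 differences without a call. The 6 B and plasma cell markers summed to 10.5 to 15.1 CPM in isotype and 16.9 to 19.6 in antiIL1R1 against 65.4 to 169.9 in agoCD40 and 90.2 to 118 in Combo. Cd79a, Ms4a1, Ighm and Jchain rose in agoCD40 against isotype, beside 0.718% of all genes called. The calls of Cd79a and Ms4a1 were each kept in 8 of 12 fits that left out 1 library. No defining marker of either list was at 0 in a group, and the part of these cells in the Cyp2c70 level was not tested. In bulk tissue, fewer cells of a type and less RNA per cell cannot be told apart. The acinar markers Cpa1, Pnlip, Ctrb1, Amy2a5 and Cel had 0 counts in all 12 libraries. The pancreatic elastases Cela1 (group means of 10.6 to 15.5 CPM) and Cela2a (0.586 to 1.34 CPM) were detected, with 0 calls by edgeR or DESeq2. Up to 1 had an unadjusted p under 0.05 (agoCD40 against isotype, beside 10.2% of all genes).

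Il1r1, the gene of the blocked receptor, had 67.3 ± 14.0 CPM in isotype, 39.3 ± 8.56 in agoCD40, 41.7 ± 2.86 in antiIL1R1 and 31.9 ± 2.11 in Combo, and it fell in Combo against isotype, a call kept in 7 of 12 fits that left out 1 library. Cd40 stayed between 0 and 1.66 CPM over the 12 libraries. An antibody acts on the protein, so neither level checks a label.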

How the data were processed

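Poly(A)-selected liver RNA of 12 libraries was analysed, 3 per group as the sample titles name them. The authors deposited a table of estimated counts per gene, made from the reads and not scaled between libraries, per the file headers. The authors also deposited a table of TPM, which divides by transcript length, per the file headers. The submitters' processing notes name the GRCm39 build, FastQC 0.12.1, cutadapt, Trim Galore 0.6.7, STAR, SAMtools 1.16.1, Picard 3.0.0, RSEM 1.3.1, bedtools 2.30.0, StringTie 2.2.1 and DESeq2 1.28.0. They do not say which of these gave the counts. RNA integrity numbers were above 7, per the labels' protocols.

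The estimated counts were rounded to whole numbers. In R 4.3.3, edgeR 4.0.16 kept genes by filterByExpr (minimum count 10), which left 15465, fitted all 12 TMM-scaled libraries with 1 mean for each group, and compared groups by its quasi-likelihood test. The Benjamini-Hochberg adjustment ran over every tested gene, and calls were made at 0.05. The biological coefficient of variation was 0.291. CPM use TMM-scaled totals, and intervals are at 95%. Library totals of 18681390 to 27118712 set the precision of each value, and the spread between libraries sets that of each comparison.

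The steps were tested on simulated counts with known changes. In the pairwise comparisons edgeR recovered 30 to 43 of 100 changes of 2-fold and 80 to 89 of 100 changes of 4-fold. In the interaction it recovered 9 and 63 of 100. False calls numbered 1 to 9 per comparison. A gene without a call may therefore still differ, above all in the interaction. Alternatives were DESeq2 1.42.0, scaling by RLE or by totals, a fit of unfiltered genes, a block for replicate number, limma 3.58.1 on log2(TPM + 1) and log2(TPM + 0.1), only the groups compared, the mitochondrial percent as a covariate, isotype 2 and antiIL1R1 2 left out together, and each library left out. Relations between members, and with the mitochondrial share, were tested with exact permutations within groups (1296 orders). The relations with the mitochondrial share, of log2 CPM as well as of relative length, were added after the lengths were seen. Members and lists were chosen with earlier results of these data known. Of each list the text names the genes called and otherwise the 2 with the smallest p in a comparison it speaks of. The genes like Cyp2c70 are the 5 highest and 5 lowest Pearson r. Promoter windows come from a RefSeq table on GRCm38.p6, whose coordinates were not joined to the counts.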

Additional observations from a re-analysis of the deposited data

How the results depend on the processing

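Over 1310 alternative fits of the members' differences, 1298 stayed on the same side of the threshold and 1216 kept their sign. No called difference turned its sign. Members called went from 1 to 3 without the filter on low counts and to 0 with limma (both pseudocounts) in agoCD40 against isotype, and from 1 to 0 with limma (both pseudocounts), with only the groups compared and without Combo 2 (range 0 to 1 over left-out libraries) in Combo against isotype. The single member called in both is Cyp2c70, which was chosen on isotype and agoCD40 libraries. From 0 they went to 1 with DESeq2 in Combo against antiIL1R1, to 2 without the filter in Combo against agoCD40 and to 1 without the filter in the interaction. Member pairs past the threshold went from 0 to 9 on log2(TPM + 1).

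Over all genes, calls in agoCD40 against isotype (111) were 399 with DESeq2, 466 without the filter, 72 with the replicate block, 59 and 67 with limma (pseudocounts 1 and 0.1), 256 with the mitochondrial covariate, 28 with only the groups compared and 28 to 108 with 1 library left out. In Combo against antiIL1R1 (27) they were 486 with DESeq2, 742 without the filter, 9 with the replicate block, 46 and 44 with limma, 69 with only the groups compared, 10 without isotype 2 and antiIL1R1 2, and 4 to 71 with 1 library left out. In antiIL1R1 against isotype (0, with 565 at an unadjusted p under 0.05 by edgeR) they were 3 with DESeq2 and 63 without the filter. In Combo against agoCD40 (1) they were 85 with DESeq2, 197 without the filter, 2 with the replicate block, 11 with the covariate, 4 with only the groups compared and 0 to 7 with 1 library left out. In Combo against isotype (63) they were 377 with DESeq2, 466 without the filter, 23 with the block, 292 with the covariate, 9 with only the groups compared, 35 without isotype 2 and antiIL1R1 2, and 12 to 63 with 1 library left out. In the interaction (1) they were 0 with total-count scaling, the block, limma or without isotype 2 and antiIL1R1 2, 82 with DESeq2, 232 without the filter, 3 with the covariate and 0 to 13 with 1 library left out. The cause of these shifts was not tested. The fit of only the groups compared was not run for the interaction.

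The labels number the libraries of every group, but the numbers did not pair them: over 18 same-numbered pairs the correlation of deviations from group means ran from -0.336 to 0.350 (median -0.0256), and 4 of 12 libraries had their best match under their own number.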

Other observations

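Other gene groups moved in the same libraries. Acute phase proteins are secreted by hepatocytes in inflammation, and the list of 23 acute phase genes also holds the receptor gene Il1r1. In agoCD40 against isotype 2 of the 23 fell (Itih3 and Itih4), beside 0.718% of all genes called. In Combo against isotype 5 fell (Fgb, Fgg, Itih4, Apcs and Il1r1), beside 0.407% of all genes called. Many of these calls were lost when 1 library was left out, and they were kept as follows: in agoCD40 against isotype Itih3 in 2 of 12 fits and Itih4 in 8, and in Combo against isotype Fgb in 9, Il1r1 in 7, Itih4 in 5, Fgg in 4 and Apcs in 3. At an unadjusted p under 0.05 were 16 of 23 in agoCD40 against isotype (10.2% of all genes), 20 in Combo against isotype (11.5%) and 18 in antiIL1R1 against isotype (3.65%). DESeq2 called 12, 14 and 0 of them, beside 399, 377 and 3 of all 15465 genes. By edgeR 0 were called in antiIL1R1 against isotype, beside 0% of all genes. Fgb, a chain of fibrinogen, stood at 5396 ± 802 CPM in isotype, 3319 ± 400 in agoCD40, 3814 ± 350 in antiIL1R1 and 2606 ± 60.1 in Combo. The list summed to 30674.5 to 45785 CPM in isotype, 18538 to 22149 in agoCD40, 21659 to 28081 in antiIL1R1 and 15784 to 18953 in Combo. Of 19 clock genes, Noct and Per1 fell in agoCD40 against isotype, beside 0.718% of all genes called. Noct rose in Combo against agoCD40 (adjusted p 0.0301 by edgeR's quasi-likelihood test), where it was the only gene called. That call was kept in 5 of 12 fits that left out 1 library (highest adjusted p 0.186). Noct, a phosphatase of the clock output, had 106 ± 40.7 CPM in isotype, 17.4 ± 4.83 in agoCD40, 114 ± 25.4 in antiIL1R1 and 121 ± 39.9 in Combo. No label gives the hour at which livers were taken, and its part in these levels, or in those of Cyp7a1 and Cyp8b1, which follow the day, was not tested.

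Of 12 periportal genes Pck1, the gluconeogenic enzyme, fell in agoCD40 against isotype, beside 0.718% of all genes called. That call was kept in 3 of 12 fits that left out 1 library and in 4 of 10 other alternatives. By edgeR 0 of 13 pericentral genes were called in any comparison. At most 3 had an unadjusted p under 0.05, in agoCD40 against isotype (10.2% of all genes) and in Combo against agoCD40 (6.21%). DESeq2 called 1 in agoCD40 against isotype, beside 399 of 15465 genes, and 1 in Combo against isotype, beside 377. The list of 15 male-biased liver genes holds Slco1a1 and Cyp7b1. Of these 15, Ugt2b38 rose in agoCD40 against isotype (8.24 ± 1.11 to 46.3 ± 27.0 CPM, adjusted p 0.00452 by edgeR's quasi-likelihood test), beside 0.718% of all genes called. Of 10 female-biased genes tested 0 were called by edgeR. In agoCD40 against isotype 5 had an unadjusted p under 0.05, beside 10.2% of all genes. DESeq2 called 1 there, beside 399 of 15465 genes. Y-linked genes were present in all 12 libraries.

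The relative transcript length of Cyp27a1 had a Pearson r of -0.922 with the mitochondrial share within groups, over 12 libraries (exact permutation p 0.00463, rho -0.888 with exact permutation p 0.00386, r -0.872 without isotype 2 and antiIL1R1 2). For Cyp2c70 the r was 0.866 (exact permutation p 0.0054, rho 0.853 with exact permutation p 0.0123, r 0.854 without those libraries) although the length itself moved by 1.08-fold at most. For Slco1a1 the r was 0.908 (exact permutation p 0.0054, rho 0.888 with exact permutation p 0.00849, r 0.846 without those libraries). The adjusted p was 0.0309 for each of these over 20 relations, and RNA quality was not tested as their cause.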
